A study of Mus musculus with 16 samples.

Results

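Xcr1, Clec9a, Batf3, Flt3, Zbtb46, Cd209a, Siglech, Ccl22, Ccl17 and Fscn1 are genes by which conventional, plasmacytoid and mature dendritic cells are commonly recognized in mouse tissue. They were chosen by name, though with earlier results of these data known. All 10 were found among the 53465 genes of the count table and passed the filter on low counts. Their RNA levels were followed across 16 MC38 tumors, each from another mouse, to compare dendritic cell genes between tumors that responded to aPD-1, tumors that did not, and control tumors.

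MC38 is a mouse colorectal carcinoma line that grows in C57BL/6 mice. All mice were female and 6 to 8 weeks old when MC38 cells were placed under the skin of the flank, and they entered the study when the tumor measured 150 to 250 mm3 on day 16. The control group (IgG, 8 tumors, mice 1 to 8) received 200 ug of control antibody on days 16 and 20, and the treated mice received the same dose of aPD-1, which blocks the inhibitory receptor PD-1 on T cells. The 8 treated tumors are labelled as 6 non-responders (NR, mice 9 to 14) and 2 responders (R, mice 15 and 16). All tumors were taken on day 21 and cut in 2 pieces, and RNA came from 2 sections of 100 um of the frozen piece. Mice were randomized to the antibody only. The study set response by CD8 staining of the other piece of each tumor, which used none of the 10 genes, so T cell genes are tied to the way the groups were made.

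Dendritic cells take up antigen and present it to T cells. Conventional type 1 cells (cDC1) cross-present antigen of dying cells to CD8 T cells, conventional type 2 cells (cDC2) mainly serve CD4 T cells, plasmacytoid cells (pDC) are known for type I interferon, and both conventional kinds can mature into migrating cells that gather T cells with chemokines. Dendritic cells are a small part of most tumors, so their genes are usually faint in RNA from whole tissue.

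Total counts lay between 26603477 and 39948874 per tumor, with a median of 34105794. Mitochondrial genes took 7.60% of counts in IgG 1, 6.00% in NR 9 and 5.74% in NR 14, against 2.52% to 3.25% in the other tumors, and a single transcript (CT010467.1) took 20.4% of counts in IgG 3. Markers of intestinal epithelium, chosen after their values were seen, were faint in most tumors, although the label is colorectal carcinoma. The medians over 16 tumors were 0.502 CPM for Epcam, 0.338 CPM for Krt8 and 0.296 CPM for Krt18, and Cdx2 had 0 counts in 15 of the 16. The highest tumor reached 10.6 CPM for Epcam, 31.9 CPM for Krt8 and 33.3 CPM for Krt18. CPM is the count of a gene relative to the size of its library after scaling between libraries.

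In the responder tumors, 7 of the 10 dendritic cell genes were higher than in non-responders: Xcr1, Clec9a, Batf3, Flt3, Cd209a, Siglech and Ccl22. A gene was called when edgeR's quasi-likelihood test gave a Benjamini-Hochberg adjusted p below 0.05 and the log2 fold change exceeded 1 in size. Of all 18251 genes tested, 12.5% were called higher in this comparison. Zbtb46 passed the adjusted p but not the fold, and Ccl17 and Fscn1 passed neither. The median log2 fold change of the 10 genes was 1.95, against 0.019 over all genes tested. In 8 of the 10 genes both responders lay above every non-responder, an order that 21.5% of all genes tested showed, and the same 8 lay above every IgG tumor in both responders, as did 19.3% of all genes. The same 7 genes were called higher against IgG tumors, where 14.3% of all genes were called higher and 0.641% lower, and the median of the 10 was 2.29. Without R 15 the count was 4 against non-responders and 6 against IgG, and without R 16 it was 6 against non-responders. Without the 3 tumors of high mitochondrial share both counts were 7. These comparisons share the 2 responder tumors, so they are not separate evidence. Bulk RNA cannot tell more dendritic cells from more RNA of these genes per cell.

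**Figure D1:**
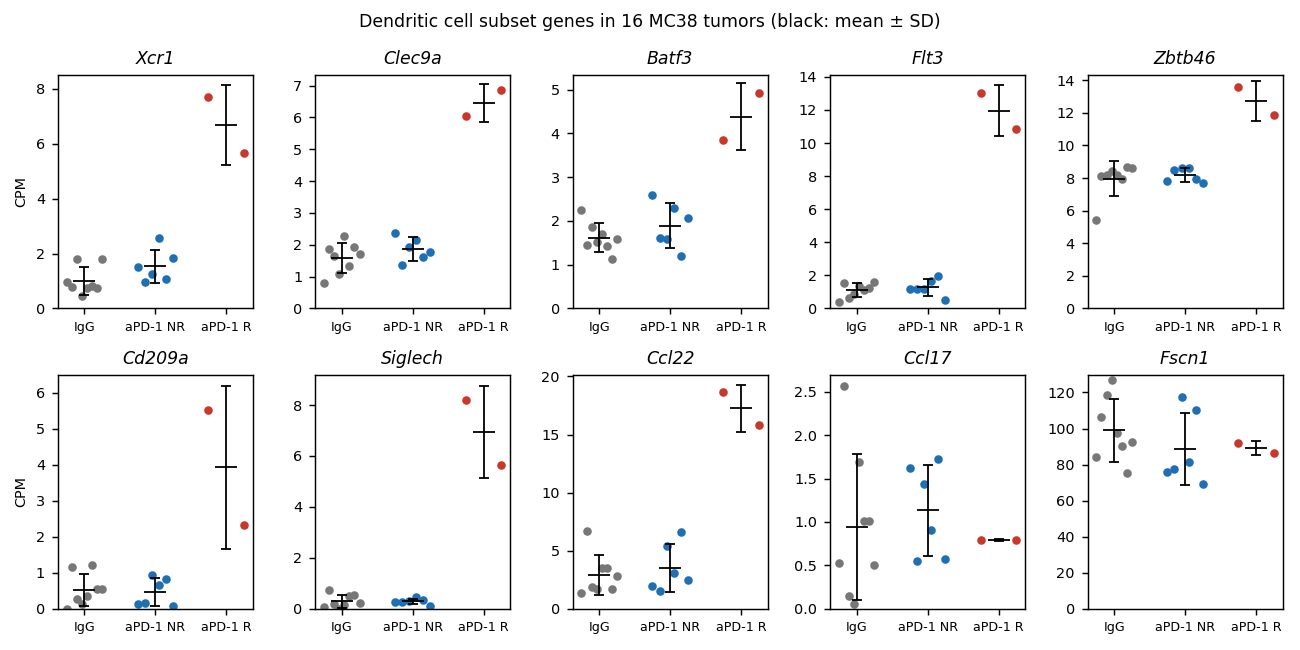
Level of each dendritic cell gene in CPM (vertical axis, from 0) in every tumor, by group (IgG n = 8, aPD-1 NR n = 6, aPD-1 R n = 2), with the mean ± SD in black. Both responders sit above all other tumors for 8 genes, and within the range of the others for Ccl17 and Fscn1.

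Genes of other cells were also higher in the 2 responders. All 10 B cell markers were called higher than in non-responders, with a summed level of 1524 CPM in R 15 and 389 CPM in R 16, against 2.76 to 8.33 CPM in non-responders and 1.94 to 9.47 CPM in IgG tumors. All 8 T cell markers were called higher (sum 218 to 245 CPM in responders, 12.4 to 34.3 CPM in non-responders and 8.57 to 28.2 CPM in IgG tumors). So were all 6 markers of high endothelial venules and lymph node stroma, which summed to 424 CPM in R 15 and 133 CPM in R 16, against at most 5.04 CPM elsewhere. All 4 fat cell markers were higher as well, with sums of 1125 CPM in R 15 and 206 CPM in R 16 and at most 77.3 CPM elsewhere. Fewer markers were called higher for NK cells (3 of 5), endothelium (3 of 6) and macrophages and monocytes (2 of 8), and edgeR called 0 for fibroblasts (of 6), keratinocytes and Langerhans cells (of 6) and skeletal muscle (of 4), as did DESeq2. At an unadjusted p below 0.05 there were 0, 2 and 0 of these genes. No listed marker was at 0 throughout the responders. Whether a frozen piece included tissue beside the tumor, such as lymph node or fat, cannot be told from these counts, so the responder values are those of the piece sequenced. The part of these cells in the results on dendritic cell genes was not tested.

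The 2 responders differed from each other by unequal amounts in these genes. R 15 over R 16 was 4.07 for Cd79a, the B cell receptor subunit, 6.01 for Glycam1, a product of high endothelial venules, and 6.08 for Adipoq, the fat cell hormone adiponectin. It was 0.987 for Cd3e, a subunit of the T cell receptor complex. For the 10 dendritic cell genes the ratio ran from 0.781 for Batf3 to 2.37 for Cd209a.

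The cDC1 genes Xcr1, Clec9a and Batf3 were all higher in responders. Xcr1, the receptor for the chemokine Xcl1 that T and NK cells release, lies at chr9:123852315-123862029 on GRCm38. Its level was 7.72 CPM in R 15 and 5.65 CPM in R 16. Non-responders ran from 0.972 to 2.58 CPM with a median of 1.37 CPM, and IgG tumors from 0.450 to 1.80 CPM with a median of 0.785 CPM. Both responders were thus above all other tumors, while the non-responder and IgG ranges overlapped. This was a log2 fold change of 2.12 (SE 0.43, adjusted p = 0.00177, edgeR) against non-responders and 2.73 (SE 0.40, adjusted p = 7.03e-05, edgeR) against IgG. Without R 15 the adjusted p against non-responders was 0.0728 and the call was lost.

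Clec9a, a receptor for the actin of dead cells that steers their antigen toward cross-presentation, lies at chr6:129408862-129424763. It was at 6.03 CPM in R 15 and 6.86 CPM in R 16. Non-responders lay between 1.37 and 2.38 CPM (median 1.85 CPM) and IgG tumors between 0.798 and 2.27 CPM (median 1.68 CPM). The responders again stood apart, and here R 16 was the higher of the pair. Clec9a had a log2 fold change of 1.78 (SE 0.30, adjusted p = 0.000382, edgeR) against non-responders and 2.02 (SE 0.28) against IgG, and both calls held without any 1 tumor.

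Batf3, a transcription factor that cDC1 need to develop, lies at chr1:191097847-191108945. The responders reached 3.84 CPM (R 15) and 4.92 CPM (R 16). The other tumors spanned 1.21 to 2.59 CPM among non-responders (median 1.84 CPM) and 1.12 to 2.24 CPM among IgG tumors (median 1.55 CPM). Batf3 rose least of the 3 cDC1 genes, by a log2 fold change of 1.21 (SE 0.28, adjusted p = 0.00534, edgeR) against non-responders and 1.44 (SE 0.27, adjusted p = 0.000672, edgeR) against IgG. Without R 16 the value against non-responders was 0.96 with an adjusted p of 0.0991, and the call was lost. The ratio of Xcr1 to Clec9a, in CPM, was 1.28 in R 15 and 0.824 in R 16, 0.628 to 1.20 in non-responders and 0.329 to 1.19 in IgG tumors, so the groups overlapped in the balance of these 2 genes.

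Flt3 and Zbtb46 are shared by several dendritic cell kinds, and they differed in how far they rose. Flt3 (chr5:147330741-147400489) encodes the receptor through which the cytokine Flt3l drives dendritic cell development. It was measured at 13.04 CPM in R 15 and 10.9 CPM in R 16. Among non-responders it lay between 0.508 and 1.98 CPM (median 1.17 CPM), and among IgG tumors between 0.418 and 1.61 CPM (median 1.20 CPM). The lower responder was thus far above the highest of the other 14 tumors. Its log2 fold change was 3.22 (SE 0.41, adjusted p = 2.38e-05, edgeR) against non-responders and 3.41 (SE 0.38, adjusted p = 3.76e-06, edgeR) against IgG, and both calls held without any 1 tumor.

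Zbtb46 (chr2:181387762-181459426), a transcription factor of the conventional dendritic cell lineage that endothelial cells also express, was at 13.6 CPM in R 15 and 11.9 CPM in R 16. Non-responders sat in a narrow band from 7.69 to 8.64 CPM (median 8.21 CPM), and 7 of the 8 IgG tumors between 7.96 and 8.69 CPM, with IgG 1 at 5.40 CPM. Both responders were above every other tumor by a small margin. The log2 fold change was 0.63 (SE 0.16, adjusted p = 0.00777, edgeR) against non-responders and 0.68 (SE 0.15, adjusted p = 0.00288, edgeR) against IgG, both under the fold that a call needed. Without R 15 the adjusted p against non-responders was 0.275. The endothelial list summed to 359 CPM in R 15 and 194 CPM in R 16, against 43.3 to 165 CPM in non-responders and 58.2 to 181 CPM in IgG tumors, and its part in the Zbtb46 difference was not tested.

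Cd209a (chr8:3743397-3748984), a lectin of cDC2 and of dendritic cells that arise from monocytes, gave the least even result among the genes called. It belongs to a cluster of similar genes, between which RSEM divides the reads they share. It was at 5.53 CPM in R 15 and 2.33 CPM in R 16. Non-responders ran from 0.0677 to 0.950 CPM (median 0.405 CPM). IgG tumors ran to 1.22 CPM with a median of 0.449 CPM, and IgG 1 had 0 counts, where the limit that 0 counts allow is 0.114 CPM. The groups did not overlap, but R 15 was 2.37 times R 16. The edgeR fit gave a log2 fold change of 3.06 (SE 0.91, adjusted p = 0.0248, edgeR) against non-responders and 2.87 (SE 0.85, adjusted p = 0.0201, edgeR) against IgG. Without R 15 the adjusted p was 0.382 against non-responders and 0.387 against IgG, and without NR 10 it was 0.0525 against non-responders, so the call was lost in each.

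Siglech (chr7:55768178-55778925), a sialic acid binding lectin of pDC, rose most of the 10 genes. It was at 8.22 CPM in R 15 and 5.65 CPM in R 16. Non-responders lay between 0.102 and 0.456 CPM (median 0.281 CPM). IgG tumors reached 0.738 CPM (median 0.204 CPM), and IgG 4 had 0 counts, which allows up to 0.0899 CPM. The responders were far above the other 14 tumors, in which the gene was close to the limit of detection. The log2 fold change was 4.56 (SE 0.71, adjusted p = 0.000196, edgeR) against non-responders and 4.50 (SE 0.65, adjusted p = 6.54e-05, edgeR) against IgG, and leaving out any 1 tumor kept both calls. In the macrophage and monocyte list, 2 of 8 markers were called higher than in non-responders, Ly6c2 at a log2 fold change of 2.48 (SE 0.51) and Mrc1 at 1.65 (SE 0.50), while the defining gene Csf1r was at 0.40 (SE 0.19, adjusted p = 0.159, edgeR).

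**Figure D2:**
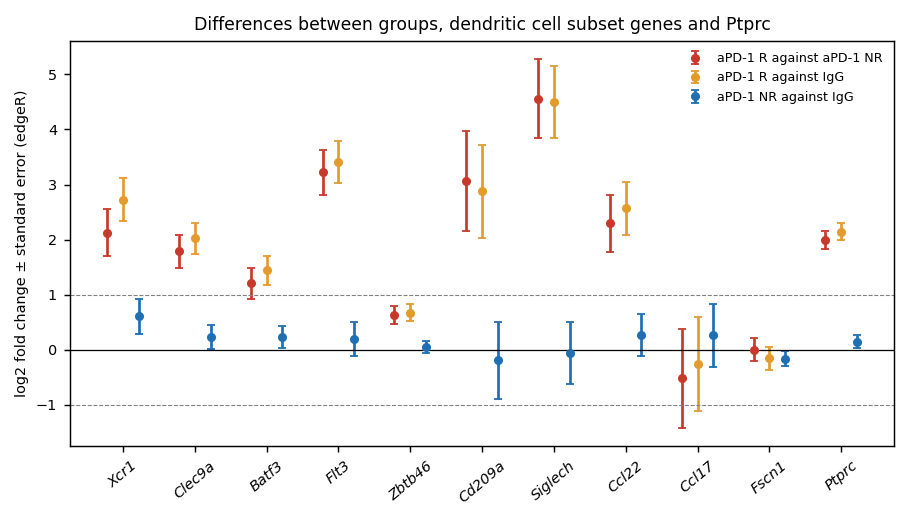
Log2 fold change (vertical axis) of the 10 genes and the leukocyte gene Ptprc between groups, with standard errors from edgeR, and dashed lines at the fold a call needs. Siglech and Flt3 stand highest for responders against non-responders, at 4.56 and 3.22, while the non-responder against IgG values stay between -0.19 and 0.61.

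Ccl22, Ccl17 and Fscn1 mark mature dendritic cells, and only Ccl22 rose under the call used. Ccl22 and Ccl17 are chemokines that attract T cells, regulatory T cells among them, through the same receptor, Ccr4. Their genes are neighbours, at chr8:94745590-94751699 and chr8:94810453-94812036, with 58753 bases between them. Ccl22 was at 18.7 CPM in R 15 and 15.8 CPM in R 16. Non-responders ran from 1.55 to 6.60 CPM (median 2.75 CPM) and IgG tumors from 1.33 to 6.70 CPM (median 2.38 CPM). No other tumor reached the responders. The log2 fold change was 2.29 (SE 0.52, adjusted p = 0.00442, edgeR) against non-responders, with an adjusted p of 0.0838 without R 15, and 2.57 (SE 0.48, adjusted p = 0.00081, edgeR) against IgG.

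Ccl17 showed no such difference. It was at 0.798 CPM in R 15 and 0.787 CPM in R 16, between the non-responders at 0.547 to 1.72 CPM (median 1.18 CPM) and well inside the IgG range of 0.0600 to 2.57 CPM (median 0.772 CPM). The groups overlapped fully. The log2 fold change was -0.52 (SE 0.89, adjusted p = 0.757, edgeR) against non-responders and -0.25 (SE 0.86, adjusted p = 0.872, edgeR) against IgG. With standard errors near 0.9 on the log2 scale, a change of 1 in either direction would not have been detectable in this gene. Clearly larger changes could have been missed as well. The ratio of Ccl22 to Ccl17, in CPM, was 23.4 in R 15 and 20.1 in R 16, and 1.21 to 4.29 in non-responders. IgG tumors ran from 1.67 to 28.5 (median 3.03), and the highest of them, IgG 4, rested on 57 counts of Ccl22 and 2 of Ccl17, so the ratio did not separate responders from all controls.

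**Figure D3:**
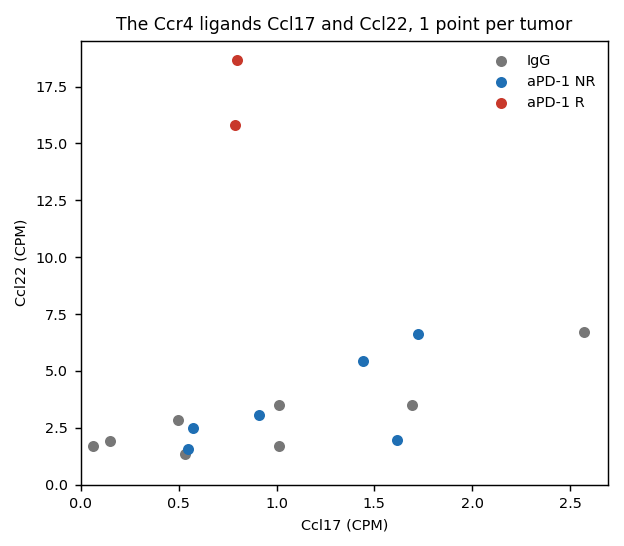
Level of Ccl22 (vertical axis, CPM) against its neighbour Ccl17 (horizontal axis, CPM), 1 point per tumor. The 2 responders lie at 15.8 and 18.7 CPM of Ccl22 with under 1 CPM of Ccl17, while the other 14 tumors stay at or below 6.70 CPM of Ccl22.

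The windows before the start sites of Ccl22 and Ccl17 are shown because Ccl22 was called higher in responders and its neighbour was not, a difference between the genes that was not itself tested, and those of Siglech and Flt3 because these genes rose most among the 10. Each runs 5′ to 3′ on the gene's strand from 250 bases before to 50 bases after the start site, from RefSeq on GRCm38.p6, at chr8:94745434-94745733 for Ccl22, chr8:94810203-94810502 for Ccl17, chr7:55767934-55768233 for Siglech and, on the minus strand, chr5:147400440-147400739 for Flt3. Capitals mark matches to the E-box letters CAGNTG on either strand.
Ccl22: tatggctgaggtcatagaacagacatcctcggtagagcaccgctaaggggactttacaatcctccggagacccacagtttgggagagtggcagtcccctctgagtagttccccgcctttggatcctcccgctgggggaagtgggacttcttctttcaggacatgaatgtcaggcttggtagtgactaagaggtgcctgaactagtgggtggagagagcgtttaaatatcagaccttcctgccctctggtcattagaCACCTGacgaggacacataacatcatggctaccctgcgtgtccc
Ccl17: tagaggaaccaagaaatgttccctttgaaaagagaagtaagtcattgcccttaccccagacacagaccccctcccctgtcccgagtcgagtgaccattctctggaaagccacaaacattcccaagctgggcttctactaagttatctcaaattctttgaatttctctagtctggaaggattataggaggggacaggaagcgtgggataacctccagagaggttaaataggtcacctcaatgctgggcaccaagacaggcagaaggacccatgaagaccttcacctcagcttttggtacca
Siglech: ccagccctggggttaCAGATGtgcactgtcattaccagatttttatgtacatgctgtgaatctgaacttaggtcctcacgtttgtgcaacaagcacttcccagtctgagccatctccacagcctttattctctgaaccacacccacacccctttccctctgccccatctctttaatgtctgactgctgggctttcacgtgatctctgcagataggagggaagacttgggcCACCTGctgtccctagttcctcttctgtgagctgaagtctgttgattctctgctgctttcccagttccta
Flt3: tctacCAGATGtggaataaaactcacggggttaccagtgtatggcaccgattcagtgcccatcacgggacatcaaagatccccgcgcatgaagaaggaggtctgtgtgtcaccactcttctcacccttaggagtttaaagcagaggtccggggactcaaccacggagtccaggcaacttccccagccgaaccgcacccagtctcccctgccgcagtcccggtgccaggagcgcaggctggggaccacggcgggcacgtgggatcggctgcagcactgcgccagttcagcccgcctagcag
An E-box of this form is bound by E proteins such as Tcf4, a regulator of pDC. It was found in the windows of 6 of the 10 genes (Ccl22, Cd209a, Clec9a, Flt3, Siglech and Zbtb46) and in 51.4% of the windows of 32851 genes, so its share among the 10 was near that of all windows. The AP-1 letters TGANTCA were found in Zbtb46 alone, against 7.81% of all windows. The Zbtb46 window, at chr2:181424339-181424638 on the minus strand, lies inside the annotated gene (chr2:181387762-181459426). Its AP-1 and E-box matches are thus not at the annotated 5′ end. The PU.1 letters GAGGAAGT (3.20% of all windows) and the NF-kB consensus (4.51%) were found in 0 of the 10. No 2 of these matches overlapped in the 10 windows, and a match of letters is not a site.

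Fscn1 (chr5:142960343-142973185) encodes fascin, an actin bundling protein of mature dendritic cells that many tumor and stromal cells also make. It was at 91.9 CPM in R 15 and 86.4 CPM in R 16. Non-responders spanned 69.5 to 118 CPM (median 79.4 CPM) and IgG tumors 75.5 to 127 CPM (median 94.9 CPM). The 3 groups overlapped. The log2 fold change was 0.0058 (SE 0.21, adjusted p = 0.991, edgeR) against non-responders and -0.15 (SE 0.21, adjusted p = 0.665, edgeR) against IgG. Its sign against non-responders flipped to -0.071 with no filter on low counts. It was at 69.5 CPM or more in every tumor, also where Siglech or Cd209a had 0 counts, so in these tumors it did not behave as a marker of dendritic cells alone, and the cells that made it cannot be told apart in bulk RNA.

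Between treatment arms as randomized, 0 of the 10 genes were called. All 8 aPD-1 tumors against 8 IgG tumors gave a lowest adjusted p of 0.178 among the 10 (edgeR), for Xcr1 at a log2 fold change of 1.48 (SE 0.46), and 6 of the 10 were at an unadjusted p below 0.05. Flt3 had a log2 fold change of 1.82 (SE 0.62, adjusted p = 0.213, edgeR) and Siglech of 2.67 (SE 0.96, adjusted p = 0.235, edgeR). Over all genes, edgeR called 0.0%, with 2463 at an unadjusted p below 0.05, and DESeq2 called 91 genes and 0 of the 10. The treated arm holds both responders, and the other 6 treated tumors overlapped the IgG range for each of the 10 genes.

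Non-responders did not separate from IgG tumors. The 10 log2 fold changes lay between -0.19 for Cd209a and 0.61 for Xcr1 (SE 0.31, unadjusted p = 0.0707), with a median of 0.21 and adjusted p of 0.987 or more throughout (edgeR). None of the 10 was below an unadjusted p of 0.05, and 0 of the 10 had all non-responders above all IgG tumors, as did 0.0164% of all genes. Across all genes edgeR called 0.0%, with 694 at an unadjusted p below 0.05, and DESeq2 called 4, with 0 among the 10. Standard errors were large for Cd209a (SE 0.70), Ccl17 (SE 0.57) and Siglech (SE 0.56), and there a difference of 1 on the log2 scale would not have been detectable. Such a difference could also have been missed in other genes of the 10, such as Ccl22 (SE 0.38), Xcr1 (SE 0.31) and Flt3 (SE 0.31). Outside the 10, Pacsin1 had a log2 fold change of 1.05 (SE 0.32) and still an adjusted p of 0.987 (edgeR). The lowest adjusted p over all genes was 0.442 (edgeR).

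Per kilobase of annotated exon (RPKM, CPM divided by exon length in kilobases), Fscn1 had the highest level in every group and the order of the others changed in responders. In IgG tumors the mean was 32.9 ± 5.75 RPKM (SD, n = 8) for Fscn1, then 1.83 ± 1.64 for Ccl17, 1.25 ± 0.754 for Ccl22, 1.01 ± 0.209 for Batf3 and 0.935 ± 0.125 for Zbtb46. Below these came Clec9a at 0.480 RPKM, Cd209a at 0.332, Xcr1 at 0.227, Flt3 at 0.180 and Siglech at 0.0884. Each neighbour after Fscn1 overlapped the next in range. Non-responders gave the same order except that Xcr1 (0.344 RPKM) stood above Cd209a (0.292 RPKM), which also overlapped, and the only gaps were below Fscn1 and between Zbtb46 and Clec9a. In responders Fscn1 was at 29.6 ± 1.301 RPKM (SD, n = 2) and Ccl22 followed at 7.42 ± 0.858, apart from its neighbours. Batf3 (2.74 RPKM), Cd209a (2.48), Siglech (2.05), Clec9a (1.96) and Flt3 (1.93) came next and each overlapped the following gene. Ccl17 (1.54), Xcr1 (1.501) and Zbtb46 (1.49) were lowest, with a gap between Flt3 and Ccl17. Siglech thus went from the lowest mean of the 10 in both other groups to the fifth in responders.

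Ptprc, which encodes CD45 on all leukocytes, was also higher in responders, at 558 CPM in R 15 and 434 CPM in R 16, against 109 to 148 CPM in non-responders and 83.3 to 145 CPM in IgG tumors. Against non-responders its log2 fold change was 1.996 (SE 0.16, adjusted p = 2.47e-07, edgeR). The level of each gene was therefore also compared after subtracting the log2 CPM of Ptprc, as a difference that asks whether a gene moved apart from the leukocyte total. Siglech was higher relative to Ptprc in responders than in non-responders by 2.40 and Flt3 by 1.27 on the log2 scale, each with p = 0.0357 in an exact two-sided permutation test, the smallest p that 28 splits of 2 and 6 tumors allow. The adjusted p over the 10 genes was 0.0714 for each. Cd209a differed by 1.27 (exact p = 0.214), Ccl22 by 0.47 (exact p = 0.393), Xcr1 by 0.15 (exact p = 0.679), Clec9a by -0.22 (exact p = 0.393) and Batf3 by -0.78 (exact p = 0.107).

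Zbtb46, Fscn1 and Ccl17 were lower relative to Ptprc, by differences of -1.37, -1.96 and -2.35, each at an exact p of 0.0357 and an adjusted p of 0.0714. Ptprc itself rose by 1.996, and a gene that rose less falls relative to it. The log2 fold changes of these genes were 0.63, 0.0058 and -0.52 in turn. Their differences therefore largely restate the rise of Ptprc and are not separate results on these genes. No gene passed an adjusted p of 0.05, and 5 of the 10 were at an unadjusted p below 0.05, all at the smallest p. Against IgG tumors the differences were 2.52 for Siglech, 1.31 for Flt3, -1.46 for Zbtb46 and -2.28 for Fscn1, each at the smallest exact p of 0.0222 from 45 splits and an adjusted p of 0.0556. Ccl17 differed by -1.81 against IgG tumors (exact p = 0.2), so it was not at the smallest p there. Xcr1 differed by 0.62 (exact p = 0.2) and Clec9a by -0.10 (exact p = 0.733) against IgG tumors. Without R 15 the Clec9a difference turned to 0.054 against non-responders and 0.17 against IgG.

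**Figure D4:**
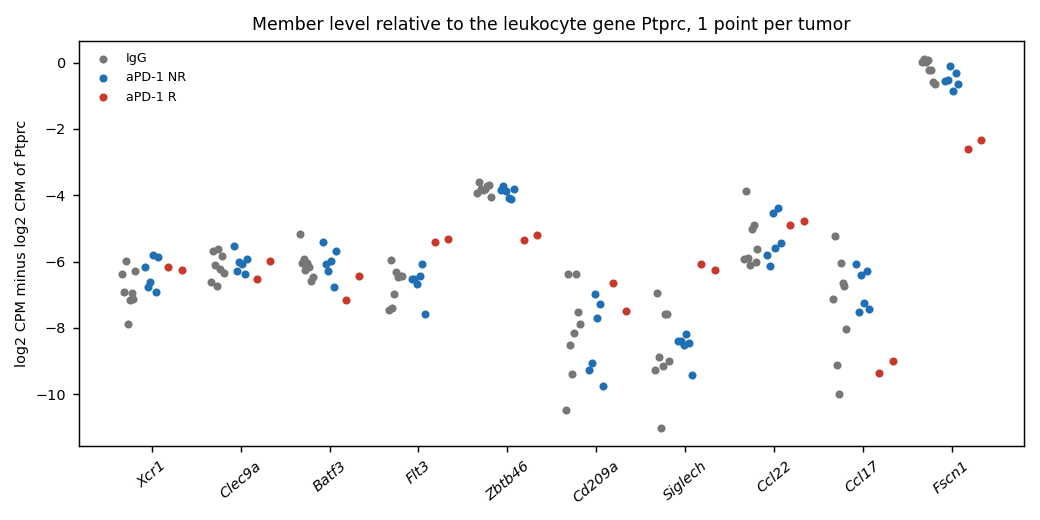
Log2 CPM of each gene minus log2 CPM of Ptprc (vertical axis), 1 point per tumor, by group. Both responders lie above all other tumors for Flt3 and Siglech, below all others for Zbtb46 and Fscn1, and among them for Xcr1 and Clec9a.

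Further genes of the same dendritic cell kinds were counted from 4 lists of 41 genes in all, of which 40 could be tested (Clec4a4 was too low). Between responders and non-responders 22 were called higher and 1 lower, against 12.5% and 0.663% of all genes tested. Of the 8 further cDC1 genes, 4 were called higher and 0 lower, with a median log2 fold change of 1.08. Cd24a, a surface glycoprotein that B cells also carry, had the highest value at 4.39 (SE 0.57, adjusted p = 3.38e-05, edgeR), and was at 93.3 CPM in R 15, 50.5 CPM in R 16 and at most 9.23 CPM elsewhere. Irf8, a transcription factor of cDC1 that B cells and macrophages also use, was called at 1.37 (SE 0.24). Besides Cadm1, those not called were Gpr33 (0.79, adjusted p = 0.351, edgeR), Snx22 (0.52, adjusted p = 0.581, edgeR) and Tlr3 (0.023, adjusted p = 0.952, edgeR). Cadm1, an adhesion molecule, had the lowest value at -0.30, with 12.3 CPM in R 15 and 4.64 CPM in R 16 against 7.56 to 17.5 CPM in non-responders.

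Of the 7 tested cDC2 genes, 3 were called higher (Irf4, Cd7 and Clec10a) and 0 lower, with a median of 1.64. Besides Klf4, those not called were Mgl2 (1.64, adjusted p = 0.0927, edgeR), Sirpa (0.37, adjusted p = 0.207, edgeR) and Itgax (-0.28, adjusted p = 0.567, edgeR). Irf4, a transcription factor shared with B and T cells, led at 4.47 (SE 0.54), at 42.3 CPM in R 15 and 28.7 CPM in R 16 against at most 2.47 CPM elsewhere. Klf4, a factor found in many cell types, was lowest at -0.59. Of the 9 pDC genes, 5 were called higher and 1 lower, with a median of 2.17. Ly6d, which developing B cells share, was highest at 5.88 (SE 0.97, adjusted p = 0.000357, edgeR), and unlike Siglech it was very uneven, at 77.1 CPM in R 15 and 23.3 CPM in R 16. Ccr9 (3.97) and Pacsin1 (3.72) were also called. Those not called were Klk1 (2.17, adjusted p = 0.105, edgeR), Tlr9 (1.67, adjusted p = 0.0699, edgeR) and Bst2 (-0.15, adjusted p = 0.804, edgeR). The pDC marker Cox6a2, a subunit of cytochrome c oxidase best known from muscle, was called lower at -1.41 (SE 0.41, adjusted p = 0.0204, edgeR), with 3.37 and 6.78 CPM in responders against 10.5 to 18.1 CPM in non-responders.

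The mature dendritic cell list had 10 of 16 genes called higher and 0 lower, with a median of 1.57. Ccr7, the receptor by which mature dendritic cells and naive lymphocytes enter lymph nodes, had a log2 fold change of 3.42 (SE 0.30, adjusted p = 5.77e-07, edgeR), at 44.8 CPM in R 15 and 38.8 CPM in R 16 against 2.11 to 6.39 CPM in non-responders. Lamp3, a lysosomal protein of mature dendritic cells, had 45 counts in R 15, 10 in R 16 and 0 in all non-responders, so it was at least 56.0-fold higher, with the limit taken as 3 counts over the non-responder group. This rests on the responder mean, and R 16 alone was at least 19.5-fold higher. Il4i1, an enzyme that degrades amino acids, followed at 5.35 (SE 0.44). Relb, a transcription factor of dendritic cell maturation, had a value of 0.17 and Ankrd33b, the lowest, -0.067, and neither was called. Beside Fscn1 and Ccl17, mature dendritic cell genes therefore did not all move together. Several genes of these lists are also expressed by B or T cells, whose markers were higher in the responders as given above, and the cells behind each gene cannot be told apart.

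**Figure D5:**
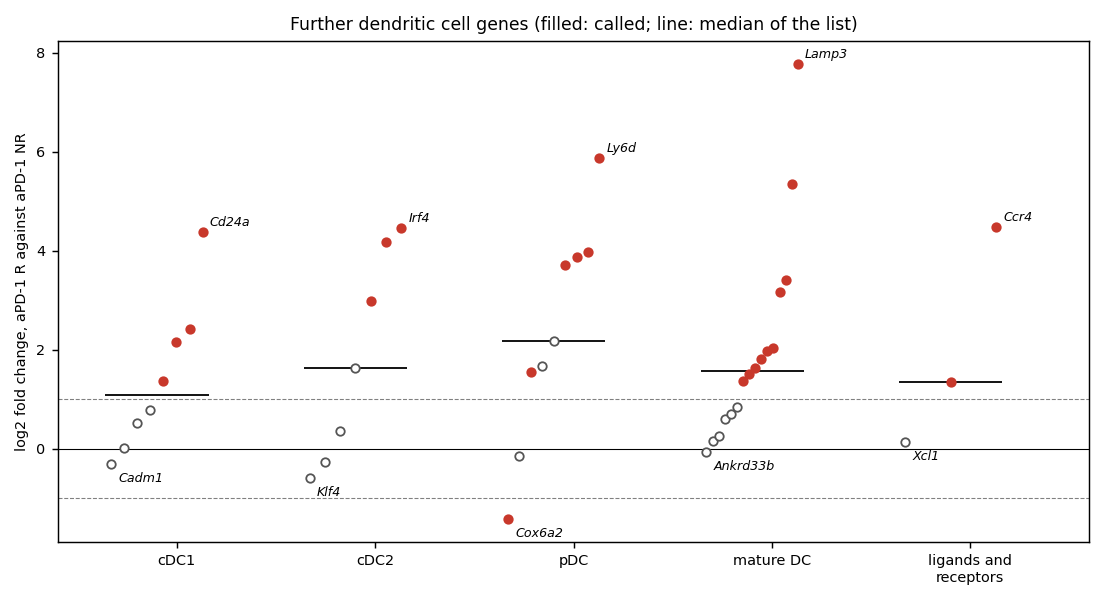
Log2 fold change of responders against non-responders (vertical axis) for the further dendritic cell genes, by list, with called genes filled, the median as a line and the highest and lowest gene of each list named. The value drawn for Lamp3 depends on a prior count, since the gene had 0 counts in non-responders.

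Of 3 tested ligands and receptors of the 10 genes, 2 were called higher and 1 was not called. Csf2, on the same list but not a partner of any of the 10, was too low to test. Ccr4, the receptor of Ccl22 and Ccl17, was called higher at a log2 fold change of 4.49 (SE 0.63, adjusted p = 7.08e-05, edgeR), with 2.07 CPM in R 15, 1.97 CPM in R 16 and at most 0.144 CPM elsewhere. Flt3l, the cytokine that Flt3 binds, was called higher at 1.36 (SE 0.18, adjusted p = 2.89e-05, edgeR), at 16.1 and 12.99 CPM in responders against 4.40 to 6.78 CPM in non-responders. Xcl1, the ligand of Xcr1, had a value of 0.15 (SE 0.40, adjusted p = 0.859, edgeR), with both responders near 1.7 CPM inside the non-responder range of 0.820 to 2.72 CPM. Against non-responders the receptor thus rose together with its ligand for Flt3 and Flt3l under the same test. Xcr1 rose there while the value for Xcl1 did not pass. Against IgG tumors Xcl1 had a larger value of 0.87 (SE 0.37, adjusted p = 0.108, edgeR), which did not pass either. The highest IgG tumor was at 1.47 CPM of Xcl1, under both responders.

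Outside the responders the 10 genes varied together only in part. Over the 14 IgG and non-responder tumors, 4 of 45 pairs passed an adjusted p of 0.05 for Pearson's r of log2 CPM (100000 permutations). Cd209a went with Flt3 (r = 0.779, adjusted p = 0.0297, permutation test; rho = 0.640, adjusted p = 0.154), with Ccl22 (r = 0.772, adjusted p = 0.0297, permutation test; rho = 0.780, adjusted p = 0.0378) and with Siglech (r = 0.739, adjusted p = 0.0351, permutation test; rho = 0.842, adjusted p = 0.0126). Siglech also went with Ccl17 (r = 0.719, adjusted p = 0.0486, permutation test; rho = 0.635, adjusted p = 0.154). Leaving out the 2 tumors farthest from the median of 1 gene of the pair gave r of 0.521, 0.786, 0.682 and 0.462 in turn. That gene was Flt3, Cd209a, Cd209a and Siglech in turn, so a tumor far out in the other gene could remain. Without IgG 1 or without IgG 2, 0 of the 45 pairs passed, while r, over all tumors left out in turn, was at its lowest 0.663 for Cd209a with Flt3, 0.729 with Ccl22 and 0.698 with Siglech, and 0.497 for Siglech with Ccl17. The chemokine neighbours Ccl22 and Ccl17 had r = 0.645 (adjusted p = 0.0848, permutation test) and rho = 0.684 (adjusted p = 0.135). The cDC1 pair Xcr1 and Clec9a had r = 0.410 (adjusted p = 0.290, permutation test) and rho = 0.222 (adjusted p = 0.624).

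Among the 13612 genes whose mean reached 1 CPM over the same 14 tumors, the genes whose log2 CPM followed each dendritic cell gene most closely are given as a description. They were Gbp2b for Xcr1 (r = 0.859), Rhoh for Clec9a (r = 0.830), Fgd2 for Batf3 (r = 0.906) and Itgbl1 for Flt3 (r = 0.948). For the others they were Tm2d3 for Zbtb46 (r = 0.946), Chrdl1 for Cd209a (r = 0.958), Timp1 for Siglech (r = 0.901), Prg4 for Ccl22 (r = 0.907), Crip1 for Ccl17 (r = 0.931) and Col4a2 for Fscn1 (r = 0.933). Slc43a3 stood among the closest 3 for both Siglech (r = 0.872) and Ccl17 (r = 0.867). The tumors share their libraries across genes, and each value is the highest of many.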

How the data were processed

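RNA was measured by poly(A), strand-specific, paired sequencing of 16 tumors. Reads were aligned by the authors to GRCm38 (STAR 2.6) and summed per gene by RSEM 1.3.0. The expected counts the authors deposited, 1 table for all tumors, were rounded to whole numbers (7.84% were not whole). The 92 entries naming no gene held at most 185 counts in a tumor and were left out. Symbols, positions and exon lengths came from the mouse GENCODE release M21 (53274 of 53465 identifiers matched). Merged exons of all transcripts can make a length too long. Precision at low counts is limited by the depth, with floors of 3 counts covering counting error only.

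All 16 tumors entered 1 fit in edgeR 4.0.16 (R 4.3.3; TMM, filterByExpr, robust quasi-likelihood test), and Benjamini-Hochberg adjustment covered 18251 genes. All aPD-1 against IgG used 2 groups. The study used DESeq2, here an alternative (1.42.0), and its default replaces outlying counts in large groups. Other alternatives were RLE scaling, no filter, at least 10 counts in 8 tumors, only the groups compared, a prior count of 0.5 in place of 2, leaving out each tumor, and, added after the data were seen, leaving out the 3 tumors with over 5% mitochondrial counts. Permutation tests used numpy 2.4.6. Scripts were tested on simulated data at the adjusted p alone. The share of false calls was 10% between responders and non-responders and 6.41% between non-responders and IgG, both above the nominal rate. It was 1.9% between responders and IgG. Between responders and non-responders, 70.4% of 4-fold and 40.2% of 2-fold changes were recovered. Between responders and IgG these shares were 67.7% and 36.7%, so many changes were missed. The 10 genes, the lists and the tests were chosen with earlier results of these data known. Named besides them are the highest and lowest gene of each dendritic cell list, Ptprc, Cd79a, Cd3e, Glycam1, Csf1r, and the genes closest in level. Adipoq, Irf8, Gpr33, Snx22, Tlr3, Cd7, Clec10a, Mgl2, Sirpa and Itgax were chosen after their values were seen. So were Ccr9, Pacsin1, Klk1, Tlr9, Bst2, Ccr7, Il4i1, Relb, Flt3l and Mrc1. Tumors are separate mice, and 2 responders limit every comparison with them.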

Additional observations from a re-analysis of the deposited data

Results flagged for a closer look

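Within groups of 6 or 8 tumors, 20 sets of values (10 genes in IgG tumors and in non-responders) were searched for a tumor far from the rest of its group by Dixon's test, which by chance marks about 1 in 20. There were 2. Zbtb46 was at 5.40 CPM in IgG 1, under the next lowest IgG tumor at 7.96 CPM. IgG 1 was also the tumor with the lowest total count (26603477) and the highest mitochondrial share (7.60%), and the part of these in the value was not tested. Ccl22 was at 6.70 CPM in IgG 2, above the next highest IgG tumor at 3.50 CPM. IgG 2 also had the highest Ccl17 and Siglech of its group, at 2.57 and 0.738 CPM. Both responders stayed above these values, and without IgG 2 the log2 fold change of Ccl22 between responders and IgG tumors was 2.87.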

How the results depend on the processing

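The count of 7 genes called higher in responders, against non-responders and against IgG, was 7 under every alternative other than leaving out a tumor. Leaving out each tumor gave 4 to 7 against non-responders, with 4 without R 15, and 6 to 7 against IgG. The counts of 0 for the other group comparisons stayed at 0. The count of 0 for the levels relative to Ptprc also stayed at 0, which says nothing of stability, since with 1 responder left the exact test cannot pass. The further dendritic cell genes, ligands and receptors called (25) ranged from 19 to 26 when a tumor was left out. The 4 pairs of genes fell to 2 with a prior count of 0.5, and ranged from 0 to 5 when a tumor was left out; the cause was not tested. Among single genes, directions turned only where the value was near 0 or its standard error large. Fscn1 between responders and non-responders turned to -0.071 with no filter, -0.027 with only the groups compared and -0.17 without the 3 tumors of high mitochondrial share, and ranged from -0.11 to 0.10 when a tumor was left out. Without those 3 tumors Cd209a and Siglech between non-responders and IgG turned to 0.097 and 0.021. When a tumor was left out, ranges that crossed 0 between non-responders and IgG were -0.010 to 0.064 for Zbtb46, -0.52 to 0.11 for Cd209a, -0.25 to 0.27 for Siglech and -0.0090 to 0.57 for Ccl22. Ccl17 ranged from -0.43 to 0.15 for responders against IgG and from -0.026 to 0.56 for all aPD-1 against IgG. Clec9a relative to Ptprc ranged from -0.49 to 0.054 against non-responders and from -0.37 to 0.17 against IgG. No paired analysis was possible because the labels number the mice from 1 to 16 and no 2 groups share a number. Where R 15 or R 16 was left out, the other was assumed to vary like the other groups. Cd209a, Siglech and Ccl17 rest on few counts outside the responders.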

Other observations

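Against IgG tumors, the further dendritic cell lists gave counts like those against non-responders, with the same 2 responder tumors on one side. Called higher were 5 of 8 cDC1 genes (median log2 fold change 1.75), 4 of 7 tested cDC2 genes (1.75), 6 of 9 pDC genes (3.05) and 10 of 16 mature dendritic cell genes (1.78). Of the partners, 2 of 3 tested were called higher (median 1.57). Over all genes tested, 14.3% were called higher against IgG tumors. Cox6a2 was again called lower, at -1.24, where 0.641% of all genes were called lower. Between non-responders and IgG tumors edgeR and DESeq2 called 0 of the 43 genes tested in these lists and 6 were at an unadjusted p below 0.05 (edgeR), with list medians between 0.053 for cDC1 and 0.51 for the partners.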
